A study of Mus musculus with 56 samples.

Results

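The brain of WSB/EiJ, a strain derived from wild-caught mice, was compared with the brains of 26 other inbred strains in prefrontal cortex and nucleus accumbens. WSB/EiJ contributed 2 of the 56 arrays of the series, 1 per region, and the 26 other strains with both regions contributed 52. The 2 remaining arrays came from MRL/MpJ and NZO/HILtJ, which had a cortex array only here, and did not enter the comparison. A gene was taken as set apart in WSB/EiJ when its log2 intensity lay at least 1 unit from the median of the other 26 strains, in the same direction, in both regions. Of 10684 features, 109 (1.02%) met this rule, 23 of them higher (0.215%) and 86 lower (0.805%) in WSB/EiJ. A feature is a named gene, read by its brightest probe set, or a probe set without a single gene symbol. Named genes made up 13 of the 23 higher and 55 of the 86 lower features.

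On each array was RNA of 1 pool of 3 males of the same strain, bought when 8 to 10 weeks of age, and no treatment is given in the labels. The dissection text takes the regions from adjacent slices of a brain, from which it was read that both arrays of a strain share their mice. On that reading every strain was represented by 1 pool, and in WSB/EiJ the strain cannot be told apart from the animals of its pool. The 26 others were SWR/J, SM/J, SJL/J, RIIIS/J, PL/J, P/J, NZW/LacJ, NON/LtJ, NOD/LtJ, MA/MyJ, KK/HlJ, I/LnJ, FVB/NJ, DBA/2J, CE/J, CBA/J, C58/J, C57BR/cdJ, C57BL/6J, C3H/HeJ, BUB/BnJ, BTBR T+ tf/J, BALB/cByJ, AKR/J, A/J and 129S1/SvImJ. The p-values below come from limma fits across all 10684 features with Benjamini-Hochberg adjustment, and they assume that the lone WSB/EiJ value varies as the 26 others do. Unless stated otherwise a test concerns the mean of both regions of each strain. The sizes themselves follow from the rule and are given as a description. The p-values of genes chosen by the rule rest on the same values and are no separate support for it.

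Classical laboratory strains descend from a small stock of fancy mice of mixed subspecies origin, whereas WSB/EiJ was bred from wild house mice of the western European subspecies, Mus musculus domesticus. Differences in transcript level between inbred strains can come with variants near a gene, with variants elsewhere, or with the state of the animal at dissection. An oligonucleotide array reads each transcript through short probes, so a probe set reports only the stretch of transcript its probes match, and other probe sets of a gene are therefore set beside its value. The plot of probe sets by gene shows every one past the brightness filter, and dim ones are given for some genes. The part that sequence differences under the probes play in any value was not tested, since probe sequences were not used here.

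WSB/EiJ had more features set apart in total, and more lower features, than each of the other 26 strains treated in the same way. Its 109 compared with 23 to 84 (median 56.5) in the others, with KK/HlJ next, and its 86 lower features compared with 9 to 60 (median 37), with I/LnJ next. The 23 higher features were within the range of the others (10 to 40), and 17 strains had fewer. Lower features thus made up 78.9% of those set apart in WSB/EiJ and 36.5% to 77.9% in the others. For every strain the brightness filter can pass a feature dim in that strain alone, but not a feature bright in that strain alone. Without the filter, 38 features were higher and 91 lower in WSB/EiJ. WSB/EiJ also held the lowest value of all 27 strains in both regions for 174 features (1.63%), against at most 106 in another strain, C57BL/6J, counted over all levels although values under log2 5 have no firm order. It held the highest value in both regions for 76 (0.711%), fewer than BALB/cByJ with 138. The deviations of WSB/EiJ in the 2 regions correlated at r = 0.52 across features, which come from the same 2 arrays and are not independent replicates, and the other strains ranged from 0.17 to 0.67.

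**Figure D1:**
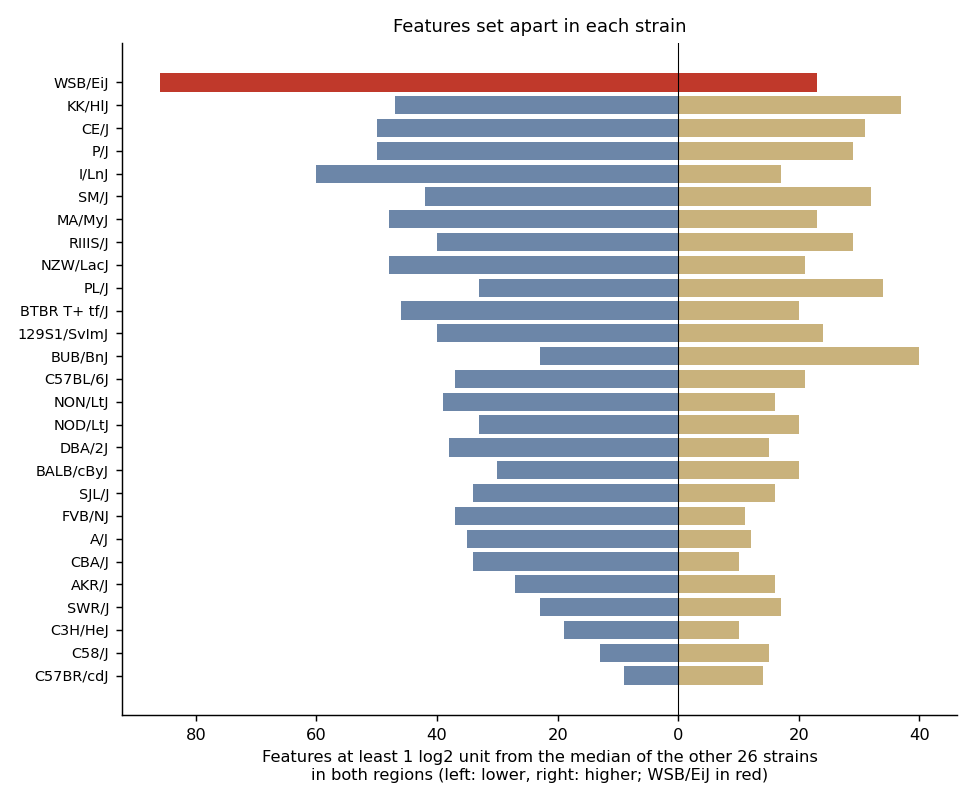
Number of features at least 1 log2 unit below (left of 0) or above (right of 0) the median of the other 26 strains in both regions, for each of 27 strains ordered by total. WSB/EiJ (red) has 86 lower and 23 higher features, and the next total is 84 in KK/HlJ.

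**Figure D2:**
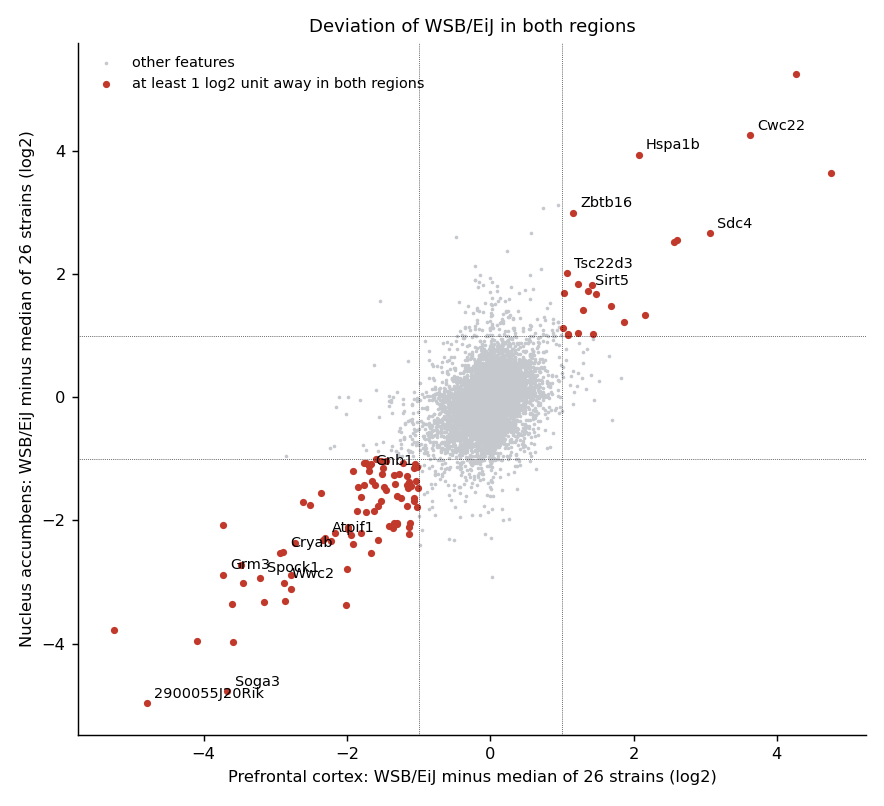
Deviation of WSB/EiJ from the median of the other 26 strains in cortex (x axis) and accumbens (y axis), in log2 units, for 10684 features. Red points are the 109 features past 1 unit (dotted lines) in the same direction in both regions, and the names of some of them are shown.

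In the test on the mean of both regions, 125 features (1.17%) passed an adjusted limma p of 0.05, 24 higher (0.225%) and 101 lower (0.945%) in WSB/EiJ. Without BALB/cByJ, CE/J, MA/MyJ and NON/LtJ, whose arrays stand apart, 294 passed, all 125 among them. With regions as separate arrays and strain as a fixed term 739 passed (221 higher, 518 lower), 124 of the 125 among them. That fit treats the 2 regions of a pool as replicates and leaves the spread between strains out of its error. Its p-values are therefore not comparable with those of the main test. The balance depends on the brightness filter, since without it 628 passed, 463 of them higher. Of the 23 higher features of the size rule 6 passed, 4 of them named genes, and of the 86 lower features 33 passed, 24 of them named genes. Within single regions, 13 features passed as higher (0.122%) and 63 as lower (0.59%) in cortex, and 22 as higher (0.206%) and 63 as lower (0.59%) in accumbens, 0.796% in all. Of the named genes of the size rule, 2 higher and 11 lower genes passed in both regions taken separately. The rule chose these genes by the same values, so the counts of its genes that passed are a description only. The WSB/EiJ arrays matched their region labels: a score of striatal minus cortical marker genes was -2.8 in WSB/EiJ cortex (others -3.1 to 0.71) and 3.57 in its accumbens (others 2.02 to 4.64). The 3′ minus 5′ signal of actin and Gapdh, a measure of RNA integrity, lay within the range of the others in both regions. The WSB/EiJ cortex array correlated best with the accumbens array of its own strain (r = 0.52 over deviations, next strain 0.12), as did 24 of 27 cortex arrays with theirs.

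With each gene read by its brightest probe set, Cwc22 was the named gene with the largest excess in WSB/EiJ. It encodes a splicing factor that places the core of the exon junction complex on spliced RNA, and copies of the gene are known to have multiplied in some house mice at the meiotic drive locus R2d2. In cortex the intensity was 9.20 in WSB/EiJ and 5.12 to 5.98 (median 5.58) in the other 26 strains. In accumbens it was 10.49 in WSB/EiJ and 5.60 to 6.74 (median 6.24) in the others. No other strain came near WSB/EiJ in either region, and the strain means of both regions ended at 6.32 in C57BR/cdJ, the next highest, against 9.85. The difference was 3.94 log2 units (SE 0.22, others' SD 0.22, n = 26), or 15.3-fold, with an adjusted limma p of 4e-13, and Cwc22 passed in each region alone. It was read by 1 probe set, so no other probe set could be set beside it, and probes cannot tell copies of the gene apart. Of 13 tested genes of the exon junction complex and nonsense-mediated decay, Cwc22 alone passed, and the median over the list was 0.08 log2 units against -0.03 over all features. The median over 22 core spliceosome genes was -0.04, with 0 past the adjusted limma threshold and 0 at an unadjusted p under 0.05, where 3.23% of all features were higher and 7.23% lower at that level. On the same chromosome, within 1.51 Mb in the GRCm38.p6 annotation, Rbm45, an RNA-binding protein gene, read 5.98 in WSB/EiJ cortex against 5.53 to 8.13 in the others (median 7.31) and 5.46 against 5.22 to 8.48 (median 6.72) in accumbens. The ranges overlapped, and 12 others were more than midway from the median towards the WSB/EiJ value in both regions.

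**Figure D3:**
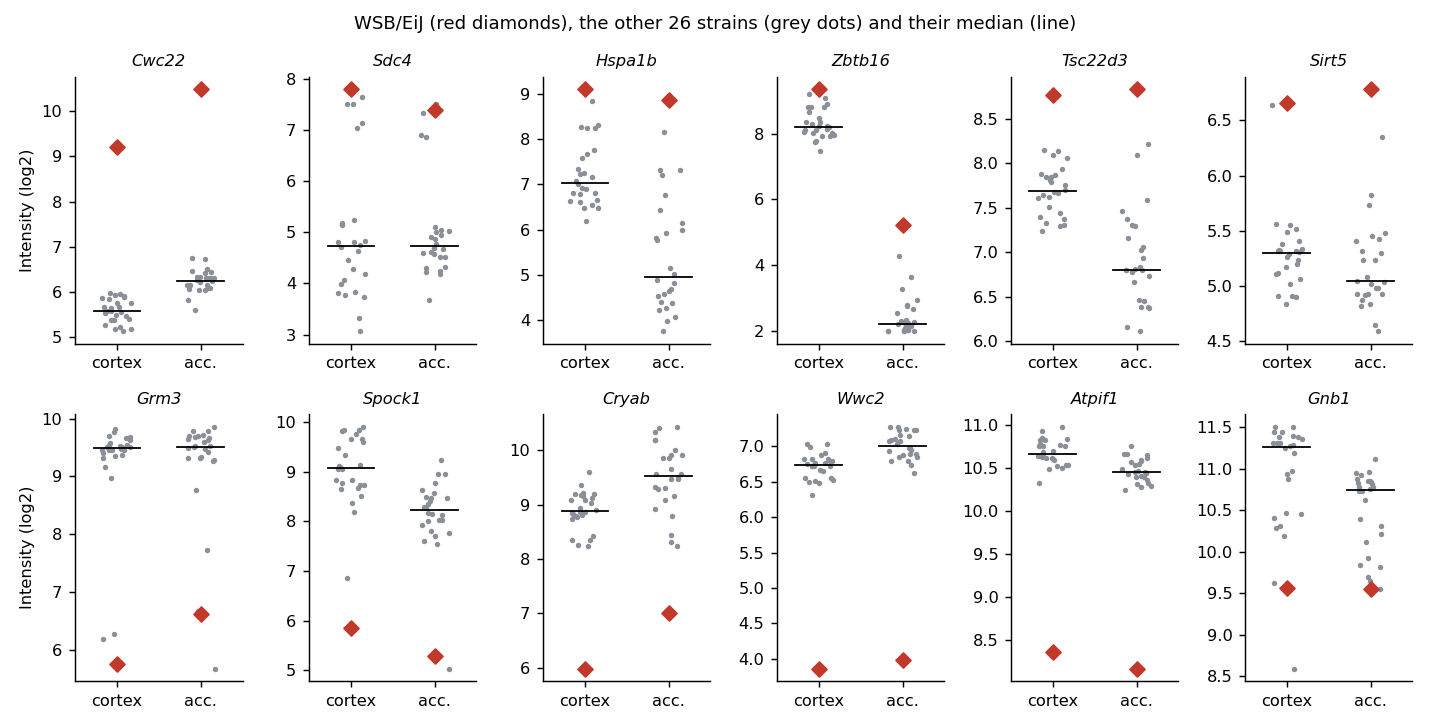
Log2 intensity of 12 genes in cortex and accumbens (acc.) of WSB/EiJ (red diamond), each of the other 26 strains (grey dots) and the median of those 26 (line). Cwc22, Hspa1b, Zbtb16, Tsc22d3, Sirt5, Cryab, Wwc2 and Atpif1 show WSB/EiJ outside all other strains in both regions. For Sdc4, Grm3, Spock1 and Gnb1 at least 1 other strain reaches or passes its level in at least 1 region.

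Among the higher genes, Hspa1b and Hspb1 encode inducible chaperones. Hspa1b encodes the inducible HSP70 chaperone, which refolds damaged protein, and Hspb1 encodes the small heat shock protein HSP25. Both genes are induced by the factor HSF1, which binds heat shock elements built from repeats of the unit GAANN and its complement. The reference sequences just before their transcription starts (RefSeq, GRCm38.p6; not read from WSB/EiJ) are shown because they carry such elements, with GAANNTTC, the core of an element, in capitals. The first lies at chr17:34959239-34959488 on the minus strand and the second at chr5:135887669-135887918 on the plus strand, both written 5′ to 3′ towards the start.
Hspa1b: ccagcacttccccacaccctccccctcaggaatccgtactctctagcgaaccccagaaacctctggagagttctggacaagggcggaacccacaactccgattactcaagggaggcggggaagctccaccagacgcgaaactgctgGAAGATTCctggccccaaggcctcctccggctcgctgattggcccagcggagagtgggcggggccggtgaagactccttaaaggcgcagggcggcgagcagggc
Hspb1: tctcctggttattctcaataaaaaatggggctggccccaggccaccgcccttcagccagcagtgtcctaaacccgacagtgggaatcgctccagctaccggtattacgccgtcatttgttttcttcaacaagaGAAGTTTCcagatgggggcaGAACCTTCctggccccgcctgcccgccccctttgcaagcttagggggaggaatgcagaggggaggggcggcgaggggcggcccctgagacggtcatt
The core stood 104 to 97 bases before the start of Hspa1b, and 2 cores stood 117 to 110 and 97 to 90 bases before that of Hspb1. This core, searched on both strands in windows of 250 bases before to 50 after the start, was present in 7.86% of 32851 windows and in 10 of 16 heat shock genes that had a window. A match is a description of the letters only.

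Hspa1b read 9.11 in WSB/EiJ cortex against 6.19 to 8.84 in the other strains (median 7.03). In accumbens it read 8.88 against 3.74 to 8.17 (median 4.94). WSB/EiJ was the highest strain in both regions, but the others were widely spread, and NOD/LtJ, NON/LtJ and SWR/J were past midway to its level in both regions. The difference of 2.69 log2 units (SE 0.91, n = 26 others) had an adjusted limma p of 0.2. All 3 probe sets of Hspa1b read higher, by 2.07 to 2.47 in cortex and 3.94 to 4.24 in accumbens. Its near-identical neighbour Hspa1a was not told apart from it. Hspb1 read 6.22 in cortex (others 3.81 to 6.29) and 6.10 in accumbens (others 4.27 to 6.17), with 1 other strain higher in each region, and its second probe set read 1.33 and 1.13 above the median.

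Further heat shock genes were listed after the value of Hspa1b had been seen, so their values are a description. Of 14 measured, 0 passed the limma test as higher and 1, Cryab, passed as lower, where 0.225% and 0.945% of all features did. At an unadjusted limma p under 0.05, 7 were higher and 1 lower, where 3.23% and 7.23% of all features were. Of the 14, 12 lay above the median of the others in both regions, where 27.3% of all features did. WSB/EiJ was the highest of 27 strains in both regions for 4 of them, Hspa1b, Hspa5, Dnajb1 and Hspa8, and for 0.711% of all features. Hspa5, the chaperone of the endoplasmic reticulum, was 0.90 above the median in cortex and 0.99 in accumbens, and Dnajb1, an HSP40 co-chaperone, 0.74 and 0.92. Hspa8, the constitutive HSP70, was 0.28 and 0.47 above. The median of the list was 0.27 log2 units against -0.03 over all features. The other two were Hspa2, at 0.05 and -0.03, and Cryab, which lay below all other strains in both regions.

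Corticosterone, the stress hormone of mice, acts through the receptor Nr3c1 to induce Tsc22d3, which encodes the anti-inflammatory factor GILZ, the transcription factor gene Zbtb16, and Fkbp5, which dampens the receptor. Tsc22d3 read 8.76 in WSB/EiJ cortex against 7.24 to 8.15 in the others (median 7.69), and 8.83 in accumbens against 6.11 to 8.21 (median 6.81). It was above all 26 strains in both regions, by 1.49 log2 units over their mean (SE 0.33, 2.8-fold, adjusted limma p 0.016), and its second bright probe set read 1.20 and 2.06 above the median. Zbtb16 read 9.35 in cortex (others 7.46 to 9.21, median 8.21) and 5.21 in accumbens (others 1.98 to 4.28, median 2.22). WSB/EiJ was again the highest strain in both regions. The difference of 1.93 log2 units (SE 0.42, adjusted limma p 0.014) leans on dim accumbens values: with values below log2 5 raised to 5 it was 0.64 units and no longer passed (adjusted limma p 0.22, range over the alternatives 4.5e-05 to 0.22). The second probe set of Zbtb16 read 0.54 above the median in cortex and 2.45 in accumbens.

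Of 16 tested genes of glucocorticoid action and stress, these 2 passed as higher and 0 as lower, where 0.225% of all features passed as higher. At an unadjusted p under 0.05, 5 were higher and 0 lower, where 3.23% of all features were higher. The median of the list was 0.21 log2 units. Of the 16 genes, 6 lay above the median of the others in both regions and 1 below it, where 27.3% and 34.4% of all features did. Fkbp5 was the highest of all strains in cortex, at 1.02 above the median, and level with A/J at the top in accumbens, at 0.33 (adjusted limma p 0.21). Cdkn1a, a cell cycle inhibitor gene, was 1.40 and 0.36 above (adjusted limma p 0.27), with KK/HlJ close behind in accumbens at 5.43 against 5.44. Sgk1, a hormone-induced kinase gene, was 0.87 and 0.93 above (adjusted limma p 0.36). Against the list, the receptor gene Nr3c1 itself deviated by -0.21 and -0.04, and Mt1 lay at the median. The time from handling to dissection and the hormone level of each strain are not in the labels, and their part in these values was not tested.

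**Figure D4:**
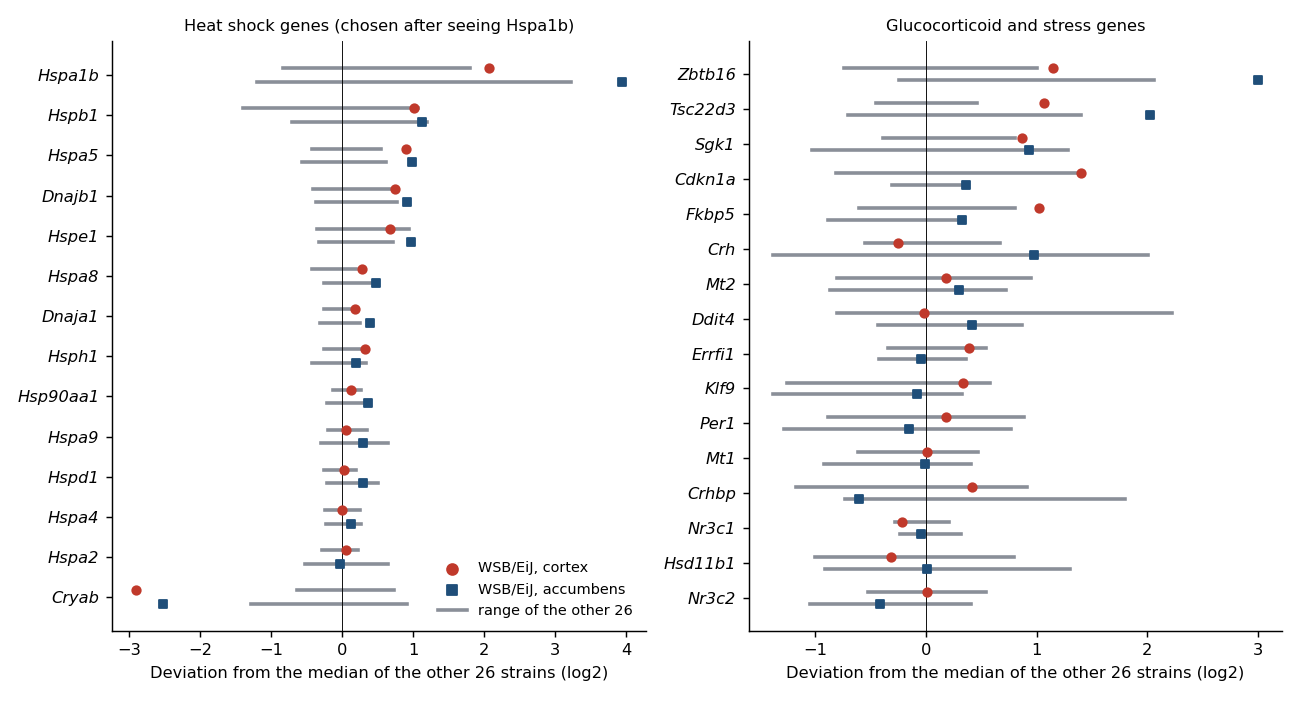
Deviation of WSB/EiJ from the median of the other 26 strains (log2) in cortex (red circles) and accumbens (blue squares), with the range of the 26 others as grey lines, for 14 heat shock genes and 16 glucocorticoid and stress genes. Hspa1b, Hspa5, Tsc22d3 and Zbtb16 lie right of the others' range in both regions, and Cryab lies left of it.

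Among metabolic genes, Sirt5 and Agpat5 read above all other strains in both regions. Sirt5 encodes the mitochondrial enzyme that removes succinyl and malonyl groups from protein. It read 6.66 in WSB/EiJ cortex against 4.84 to 6.64 (median 5.30), and 6.78 in accumbens against 4.59 to 6.35 (median 5.05). P/J came closest in both regions. The difference was 1.49 log2 units (SE 0.32, 2.81-fold, adjusted limma p 0.012), and Sirt5 passed in each region alone, but its other probe sets were below the brightness filter and read 0.03 to 0.81 above the median. Agpat5, an acyltransferase gene of phospholipid synthesis, read 7.12 in cortex (others 5.60 to 6.84) and 7.18 in accumbens (others 5.30 to 6.94). Its adjusted limma p was 0.16, and its second probe set read -0.15 and 0.00 from the median, a dim one -0.22 and -0.80.

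For the remaining higher genes at least 1 other strain matched WSB/EiJ in at least 1 region. Sdc4 encodes syndecan-4, a heparan sulphate proteoglycan of the cell surface. It read 7.80 in WSB/EiJ cortex against 3.06 to 7.64 (median 4.74), and 7.40 in accumbens against 3.68 to 7.52 (median 4.74). The strains 129S1/SvImJ, AKR/J, CE/J, I/LnJ and SJL/J shared the high level, and the adjusted limma p was 0.41. The second Sdc4 probe set went the other way, at -0.96 and -1.06 from the median. Creg2, a secreted glycoprotein gene, read 8.68 and 7.65 against medians of 6.51 and 6.31, with 5 other strains past midway. Adgra1, an adhesion receptor gene of the brain, read 8.52 and 6.43 against 7.23 and 5.01, and its 2 other probe sets deviated by 1.23 and 0.99 and by 0.34 and 1.18. Tmem255a read 5.14 and 8.12 against 4.11 and 6.42, its second bright probe set deviated by 0.54 and 1.53 and its dim one by 0.13 and 1.81, and Fndc1 read 4.67 and 6.26 against 3.44 and 5.22. Rpl41, a ribosomal protein gene, read 9.95 and 9.69 against 8.86 and 8.67, but its 2 other probe sets deviated by -0.21 to -0.01. None of these 6 genes passed the limma test on the mean of both regions (adjusted p 0.16 to 0.54), and Rpl41 turned to -0.12 log2 units without probe sets marked as cross-hybridizing. Of the higher probe sets without a single symbol, 1424609_a_at (13.16 in cortex, others 10.16 to 10.91; 13.37 in accumbens, others 10.22 to 11.43) and 1424607_a_at passed, with adjusted limma p of 1.9e-09 and 8.2e-09.

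On the lower side, Atpif1, Cryab, Wwc2 and 2900055J20Rik were the genes among the first 15 by size that no other strain approached. Atpif1 encodes the inhibitor that stops mitochondrial ATP synthase from running backwards. It read 8.36 in WSB/EiJ cortex against 10.33 to 10.98 in the others (median 10.67), and 8.17 in accumbens against 10.25 to 10.76 (median 10.45). Both WSB/EiJ values were well clear of the lowest other strain, while the signal remained bright. The difference was -2.31 log2 units (SE 0.11, others' SD 0.11, n = 26), or 4.97-fold, with an adjusted limma p of 2.3e-14. Its 2 other probe sets did not meet the brightness filter and deviated by -0.35 to 0.12. Of 26 tested genes of oxidative phosphorylation 0 passed the limma test, with a median of -0.04. At an unadjusted p under 0.05, 0 were higher and 3 lower, against 3.23% and 7.23% of all features. Their mean level was 10.48 in WSB/EiJ cortex, just below all others (10.51 to 10.74). In accumbens it was 10.74, inside the range of the others (10.49 to 11).

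Cryab encodes alpha B-crystallin, a small heat shock protein abundant in oligodendrocytes and astrocytes. It read 5.98 in WSB/EiJ cortex against 8.24 to 9.61 (median 8.89), and 7.0 in accumbens against 8.25 to 10.44 (median 9.53). WSB/EiJ lay below all 26 strains in both regions, with a difference of -2.71 log2 units from their mean (SE 0.40), that is 6.54-fold lower (adjusted limma p 0.00014). The second bright probe set deviated by -2.98 and -2.68. Oligodendrocyte and myelin genes also read below the median of the strains, though far less: the median of 14 was -0.36 log2 units and 11 lay below the median in both regions, where 34.4% of all features did. Their mean level was 7.29 in WSB/EiJ cortex (others 6.83 to 8.73) and 8.12 in accumbens (others 7.46 to 9.73), inside the range of the others. Of them 0 passed the limma test, with 2 lower at an unadjusted p under 0.05 (7.23% of all features). Astrocyte genes leaned the other way, with a median of 0.16 over 14. Of these, 8 lay above the median of the others in both regions and 2 below, where 27.3% and 34.4% of all features did. None of the astrocyte genes passed the limma test. In tissue pieces such as these, fewer cells of a type and less RNA per cell cannot be told apart. Their part in the Cryab value was not tested.

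Wwc2, whose protein acts in the Hippo pathway of growth control, read 3.86 in WSB/EiJ cortex against 6.32 to 7.04 (median 6.74), and 3.98 in accumbens against 6.62 to 7.28 (median 7.0). The 26 others were closely spaced, with an SD of 0.11, and WSB/EiJ was lower by at least 3.65-fold (adjusted limma p 5.5e-17). Here and below, a fold is given as a lower bound where a mean level is under log2 5, the level taken as dim, and is then counted from that level. The 2 other bright probe sets of Wwc2 deviated by -0.04 to 0.04, so the difference is carried by 1 probe set, and the mean of its probe sets gave -0.95 log2 units (adjusted limma p 5.6e-07). The transcript 2900055J20Rik, of unknown function, was dim in WSB/EiJ only. It read 2.85 in cortex (others 6.65 to 8.11, median 7.64) and 2.34 in accumbens (others 5.63 to 7.91, median 7.30), at least 5.25-fold lower with an adjusted limma p of 3.1e-10. Dctn5, a subunit of the dynactin complex that links cargo to dynein, read 5.35 in cortex (others 6.16 to 7.95) and 5.20 in accumbens (others 6.05 to 7.83). It was the lowest strain in both regions, 4.33-fold lower than the mean of the others (adjusted limma p 0.001), and its second probe set deviated by -1.41 and -1.28.

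For genes of transmitters and of the neuronal surface, at least 1 other strain was past midway to the level of WSB/EiJ. Grm3 encodes the metabotropic glutamate receptor mGluR3, which lowers glutamate release and is found on astrocytes too. It read 5.75 in WSB/EiJ cortex against 6.18 to 9.82 (median 9.48), and 6.62 in accumbens against 5.67 to 9.86 (median 9.51). NON/LtJ and RIIIS/J were past midway to the low level, most of the rest lay close to the median, and the adjusted limma p was 0.11. Spock1, the gene of the extracellular proteoglycan testican-1, read 5.85 in cortex (others 6.86 to 9.91, median 9.07) and 5.29 in accumbens (others 5.03 to 9.23, median 8.22). P/J alone was past midway to WSB/EiJ, and the difference of -3.03 log2 units (SE 0.67) passed the limma test at an adjusted p of 0.014. The second Spock1 probe set read 0.94 and 0.68 above the median, and the mean of both gave -1.12 log2 units (adjusted limma p 0.12). Slc1a4, the gene of the neutral amino acid transporter ASCT1, read 5.01 in cortex (others 4.20 to 9.15, median 8.62) and 5.18 in accumbens (others 5.20 to 9.28, median 8.54), with CBA/J and SM/J past midway and an adjusted limma p of 0.14. Its 2 other bright probe sets deviated by -0.35 to 0.24.

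Soga3 read 4.49 and 3.17 in WSB/EiJ cortex and accumbens against medians of 8.17 and 7.94, with 5 other strains past midway. Pnma2, a neuronal gene related to retrotransposon gag genes, read 3.35 and 4.05 against 6.80 and 7.08, with 6 other strains past midway, and its second probe set read 0.35 and 0.61 above the median. Neither passed the limma test (adjusted p 0.45 and 0.53). Zfp267, a zinc finger gene, read 3.44 and 5.19 against 7.17 and 7.26, and 5 other strains were past midway (adjusted limma p 0.3). Gnb1, chosen after its values were seen, encodes the beta subunit of the main brain G proteins. It read 9.57 in cortex (others 8.59 to 11.51, median 11.26) and 9.55 in accumbens (others 9.55 to 11.12, median 10.75), and C57BL/6J, KK/HlJ, MA/MyJ, NZW/LacJ and P/J were past midway. Both Gnb1 probe sets were lower by at least 1 unit, the second with deviations of -1.75 and -1.64, and the adjusted limma p was 0.47.

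Tmem14c, which encodes a mitochondrial carrier of a haem precursor, read 3.07 in WSB/EiJ cortex (others 3.05 to 6.99, median 6.66) and 2.66 in accumbens (others 2.87 to 6.95, median 6.64). NOD/LtJ alone shared this low level, and the limma test passed at an adjusted p of 0.0053. Alad, named after its values were seen, encodes an early enzyme of haem synthesis. It read 5.47 in cortex (others 5.55 to 8.12) and 5.86 in accumbens (others 5.76 to 8.41), and BTBR T+ tf/J, C57BL/6J, KK/HlJ and SM/J were past midway (adjusted limma p 0.32). Of 6 tested genes of haem synthesis 0 passed the limma test, 1 was lower at an unadjusted p under 0.05 (7.23% of all features), and the median was -0.14. Of the 6, 5 lay below the median of the others in both regions, where 34.4% of all features did. Their mean was 6.75 in WSB/EiJ cortex (others 6.74 to 7.46) and 6.9 in accumbens, below all others (7.02 to 7.56). Galc, the lysosomal enzyme gene whose loss causes Krabbe disease, read 2.55 in cortex (others 2.51 to 6.24) and 3.03 in accumbens (others 2.38 to 6.73). The others ranged widely for Galc, and 9 of them were past midway (adjusted limma p 0.72). Of its 2 dim probe sets, 1 read 0.80 and 1.26 above the median, the other way, and 1 read 0.02 and 0.03 above.

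Pdxdc1 gave opposite readings by probe set. Its brightest probe set read 3.78 in WSB/EiJ cortex (others 2.94 to 7.08, median 6.71) and 4.12 in accumbens (others 2.65 to 7.04, median 6.66), with 5 other strains past midway. Another probe set read 6.69 and 7.10 in WSB/EiJ against medians of 2.37 and 2.19 in the others, that is 4.32 and 4.91 above. A further bright probe set deviated by -1.19 and -0.25, and a dim one by -0.11 and -0.21. The direction of this gene therefore depends on the probe set, and the mean of its probe sets gave 0.28 log2 units (adjusted limma p 0.59).

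H2-D1 and H2-K1, class I histocompatibility genes that present peptides to T cells and vary between haplotypes, read low in WSB/EiJ and in a set of other strains. H2-D1 read 3.69 in WSB/EiJ cortex against 3.76 to 9.00 (median 6.86), and 2.54 in accumbens against 3.40 to 8.72 (median 5.86). The WSB/EiJ values and the lowest of the others were dim and have no firm order, and 7 others were past midway: AKR/J, C3H/HeJ, CBA/J, CE/J, MA/MyJ, RIIIS/J and SJL/J (adjusted limma p 0.52). H2-K1, chosen after its values were seen, read 3.62 (others 2.84 to 8.42) and 2.47 (others 2.96 to 7.44), and 5 of those 7 strains were past midway for it. The second bright H2-D1 probe set deviated by -4.24 and -2.96, while a dim one read 1.03 and 1.09 above the median. B2m, the shared light chain, deviated by -0.36 in cortex and -0.05 in accumbens. Of 5 tested antigen presentation genes 0 passed the limma test, and 0 had an unadjusted p under 0.05. In the GRCm38.p6 annotation Hspa1b lies between these genes on chromosome 17, 0.96 Mb from H2-K1 and 0.307 Mb from H2-D1, and Ier3 lies 0.559 Mb from H2-D1. Ier3, an immediate early gene of cell survival, read 4.82 in cortex (others 5.45 to 6.44) and 3.63 in accumbens (others 3.25 to 5.63) and passed the limma test as lower (adjusted p 0.015), but not with dim values raised to log2 5 (adjusted limma p 0.14).

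Below the first 15 lower genes, some were picked after their values were seen because WSB/EiJ lay below all others in both regions. Rps27l, which encodes a ribosomal protein induced by p53, read 6.16 in cortex (others 8.10 to 9.13) and 7.11 in accumbens (others 8.57 to 9.49), 4.47-fold lower (adjusted limma p 2.5e-07). Its 2 other probe sets deviated by -0.09 to 0.09, and the mean of its probe sets gave -0.75 log2 units (adjusted limma p 0.016). Tmem181a read 5.82 in cortex (others 6.39 to 8.99) and 5.31 in accumbens (others 6.89 to 9.75), 6.57-fold lower (adjusted limma p 0.0095). Me3, the gene of a mitochondrial malic enzyme, read 5.74 and 5.78 against lowest other values of 6.09 and 5.96 (adjusted limma p 0.017). Zfp943, a zinc finger gene, read 5.07 and 5.48 against lowest other values of 6.17 and 6.27 (adjusted limma p 7.4e-06). Per3, a period gene of the circadian clock, read 3.80 in cortex (others 4.95 to 7.08) and 4.70 in accumbens (others 4.88 to 7.11), with an adjusted limma p of 0.076 and its 3 other bright probe sets between -0.44 and 0.73. Of 16 tested clock genes 0 passed the limma test, 2 were lower at an unadjusted p under 0.05 (7.23% of all features), and the median was -0.01.

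Gsn, the gene of the actin-severing protein gelsolin, had 4 bright probe sets, and all were at least 1 unit lower in both regions. It read 6.09 in cortex (others 6.37 to 7.91, median 7.25) and 6.69 in accumbens (others 6.96 to 8.81, median 8.11). The other 3 probe sets deviated by -3.68 to -1.07 in cortex and by -4.78 to -1.25 in accumbens. The adjusted limma p was 0.1. 2610005L07Rik read 7.17 and 7.19 against medians of 8.24 and 8.82, and 2 of its 5 other bright probe sets were also at least 1 unit lower in both regions. Of the lower probe sets without a single symbol, 1421571_a_at read 2.99 in cortex (others 7.22 to 8.85) and 4.28 in accumbens (others 6.66 to 8.55), with an adjusted limma p of 5e-11. The probe set 1439702_at read 6.09 and 6.10 against lowest other values of 6.55 and 7.25, with an adjusted limma p of 6.7e-05.

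C1qc, a complement gene of microglia, read 3.29 in cortex (others 3.28 to 6.02) and 3.21 in accumbens (others 2.76 to 6.10), with an adjusted limma p of 0.52. Its partners in the same complex stayed near the median, C1qa at -0.22 and -0.06 and C1qb at 0.01 and 0.11. Over 11 microglial genes the median was -0.33 log2 units, 8 lay below the median of the others in both regions (34.4% of all features), and 0 passed the limma test, with 1 lower at an unadjusted p under 0.05 (7.23% of all features). Their mean level in WSB/EiJ was 6.13 in cortex (others 6.10 to 6.88) and 6.62 in accumbens (others 6.41 to 7.37). For 9 genes of endothelial and mural cells the median was -0.56, 0 passed the limma test and 5 were lower at an unadjusted p under 0.05, where 7.23% of all features were. Their mean was 6.50 in WSB/EiJ cortex (others 6.53 to 7.64) and 6.25 in accumbens (others 6.36 to 6.96), the lowest of 27 strains in both regions. Cldn5, the tight junction gene of brain endothelium, deviated by -0.75 and -0.77 (adjusted limma p 0.1). In accumbens the median of 28 medium spiny neuron genes was -0.75, and their mean of 8.97 (others 7.26 to 10.01) exceeded that of 3 strains. In cortex the median of those 28 genes was 0.01. In the limma test on the mean of both regions 0 of them passed, with 2 lower at an unadjusted p under 0.05, near the 7.23% of all features. These counts do not concern the accumbens deviation alone. Oligodendrocyte and myelin genes, described with Cryab above, had a median of -0.36. By their medians, the lists of interneurons and of cortical excitatory neurons were not lower. The median of 14 interneuron genes was 0.17, with 10 above the median of the others in both regions and 1 below. For 21 genes of cortical excitatory neurons the median was -0.01, with 7 above and 7 below. The part of cell makeup or of the dissected area in the gene values above was not tested.

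Probe sets of the same gene agreed for some genes and not for others, as the plot of probe sets by gene shows. All bright probe sets of Hspa1b, Hspb1, Tsc22d3, Cryab, H2-D1, Dctn5, Gnb1 and Gsn were past 1 unit on the same side in both regions. Of the 13 higher genes, 9 had 12 other probe sets past the brightness filter; 4 of the 12, of 3 genes, were also at least 1 unit higher in both regions, and 3 lay within 0.5 of the median in both. Of the 55 lower genes, 19 had 33 such probe sets; 9 of the 33, of 6 genes, were also at least 1 unit lower in both regions, 14 lay within 0.5 and 1 was at least 1 unit higher. A further 20 lower genes had 1 probe set, and 16 had dim others only. Over both directions 28.9% of the other bright probe sets were past 1 unit on the same side, where the other 26 strains, treated in the same way, ranged from 0% to 60% (median 20%). The level of WSB/EiJ was under log2 5 in both regions for 52 of the 86 lower features.

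**Figure D5:**
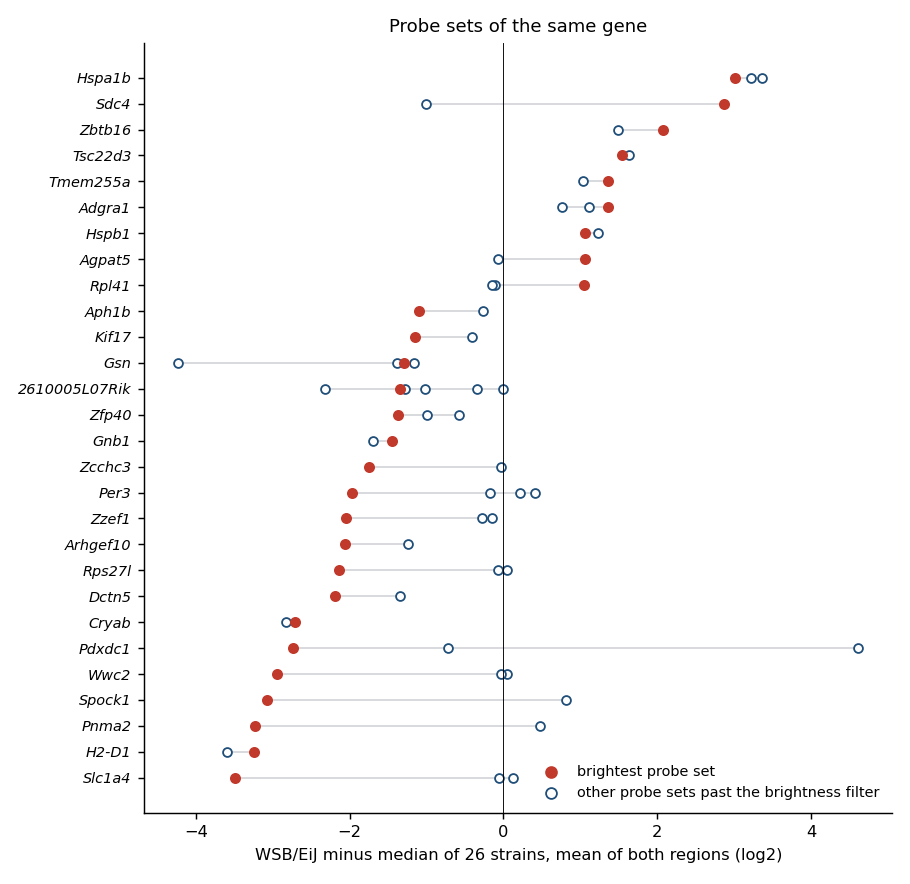
WSB/EiJ minus the median of the other 26 strains (log2, mean of both regions) for every probe set past the brightness filter, for the named genes with more than 1. Red points are the brightest probe set, which represents the gene, and open points the others: those of Hspa1b, Tsc22d3, Cryab and Gsn lie near or beyond it, and those of Wwc2, Rps27l and Slc1a4 lie near 0.

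How many strains share a level was described by the number past midway between the median and the WSB/EiJ value in both regions, a measure chosen after the values were seen. For 28 of the 86 lower features no other strain was past midway, for 34 it was 1 to 3, and for 24 it was more, up to 12. For the 23 higher features the numbers were 4, 11 and 8, up to 11 strains. Among the 26, FVB/NJ shared the most lower features with WSB/EiJ (13) and C58/J the fewest (2). Named genes that stood at the edge of the size rule were Gstt1 (smaller deviation 1.00), Rpl14 (1.01), Hspb1 (1.01), Rpl41 (1.02) and Agpat5 (1.03) just inside it. Zfp62 (0.99), Sox2ot (0.99), Rbm12b1 (0.99), Rbp4 (0.98) and Adam23 (0.98) were just outside.

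The difference between the regions in the deviation of WSB/EiJ was tested for each feature. In the limma test of accumbens minus cortex, 6 features (0.0562%) passed, 4 higher (0.0374%) and 2 lower (0.0187%), with 467 at an unadjusted p under 0.05, and of the 109 set apart in both regions only 1421571_a_at was among the 6. Without BALB/cByJ, CE/J, MA/MyJ and NON/LtJ together, 84 passed (30 higher, 54 lower), and without any 1 of them alone 6 or 7 did, settings chosen after seeing the data. Znfx1, which encodes a helicase that senses foreign RNA, read 6.93 in WSB/EiJ cortex, above all others (5.42 to 6.43), but 5.64 in accumbens, near the low end (5.63 to 6.59). Tmem18, a gene linked to body weight, read 5.67 in cortex, below all others (6.50 to 7.40), and 7.40 in accumbens, within them (6.97 to 7.82). The transcript 1110032F04Rik read 7.36 in cortex, within the others (6.79 to 7.85), and 5.66 in accumbens, above them all (3.21 to 4.48). Ube2d-ps, a ubiquitin conjugase pseudogene, read 4.93 in cortex (others 4.47 to 6.34) and 3.21 in accumbens (others 4.22 to 6.10). Tsc22d3, Zbtb16 and Hspa1b deviated more in accumbens than in cortex, but none of them passed this test (adjusted limma p 0.98, 0.6 and 0.98).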

How the data were processed

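Total RNA, pooled by strain and region, was hybridised to 56 1-colour oligonucleotide arrays. Linear intensity values per probe set, as deposited by the authors, were used. GCRMA is named in the submitters' processing notes, with the version not given in the sources used here. Whether the regions were normalized together is not stated, so they were compared through deviations only. A median intensity of 9.94 to 10.43 in cortex and 9.66 to 10.14 in accumbens, in linear units rather than log2, shows that most probe sets were dim. Precision is limited by how many arrays there are.

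Intensities were turned to log2 without a pseudocount. Kept were 16056 of 45015 probe sets, those above log2 5 on 13 or more of the 54 arrays, and the brightest kept probe set represented a gene, which left 10684 features, 8811 of them named. By the platform annotation, 34880 probe sets had 1 symbol, 923 several and 9148 none, besides 64 controls, which were left out. Tests used limma 3.58.1 (lmFit and eBayes) in R 4.3.3 on 27 strain values, the mean of both regions, each region, or accumbens minus cortex, adjusted by the Benjamini-Hochberg method, with 0.05 as the threshold. The fit was tested on simulated data. Counts were made in Python 3.11.15 with numpy 2.4.6 and pandas 2.3.3, and plots with matplotlib 3.10.9. Neighbours and promoters are those of RefSeq on GRCm38.p6, where 67 of 68 named members had an entry and 57 a promoter window. Each strain has 1 pool here, so p-values measure the spread between strains, except in the alternative fit with strain as a fixed term.

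Named genes were all 13 higher genes, the first 15 lower genes by the smaller of their 2 deviations, list genes past the threshold or against their list, the 5 nearest the size rule on each side, and up to 5 per direction of the region test. Some further lower genes were named after their values were seen. Members, lists and rules were chosen with earlier results of these data known. The alternatives were other filters, normalizations, probe set rules, thresholds and sets of strains.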

Additional observations from a re-analysis of the deposited data

Results flagged for a closer look

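The deviation of WSB/EiJ differed between accumbens and cortex for 6 features in the limma test of that difference (adjusted p under the threshold), given as WSB/EiJ minus the 26 others, accumbens minus cortex. Ube2d-ps was at -1.47 log2 units and Znfx1 at -1.42. Tmem18 was at 1.37 and 1110032F04Rik at 1.94. The probe sets 1421571_a_at and 1442025_a_at, which have no single gene symbol, were at 1.48 and 1.96. With values below log2 5 raised to 5, 3 features passed.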

How the results depend on the processing

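The number past the limma threshold on the mean of both regions was 125 (24 higher, 101 lower). It was 628 (463 and 165) without the brightness filter, 48 (13 and 35) with a filter at log2 7, 76 (55 lower) with values below log2 5 raised to 5, 294 (81 and 213) without BALB/cByJ, CE/J, MA/MyJ and NON/LtJ together, 739 (221 and 518) with strain as a replicate block over both regions, and 58 (10 and 48) at a threshold of 0.01. With every kept probe set tested, 45 were higher. Leaving out one of those 4 strains alone, chosen after seeing the data, gave 129 to 163. The number set apart by size was 109 (23 and 86). It was 48 (11 and 37) with the filter at log2 7, 63 (45 lower) with dim values raised, 181 (47 and 134) over every kept probe set, 437 (127 and 310) at 0.5 unit and 48 (7 and 41) at 1.5 units, and 38 were higher without the filter. In cortex, 8 were higher with MRL/MpJ and NZO/HILtJ added. For the region difference, 3 passed (1 higher) with dim values raised, and 84 (30 and 54) without the 4 strains together, a setting chosen after seeing the data. The cause of these changes was not tested.

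Over 74 named genes, 847 values under the alternatives kept direction and side of the threshold, 53 newly passed, 17 no longer passed and 2 reversed: Pdxdc1 to 0.28 with the mean of its probe sets, and Rpl41 to -0.12 without cross-hybridizing probe sets. Of the 53 that newly passed, 45 did so in the fit with strain as a fixed term. Most calls that were lost were of dim genes with values raised to log2 5. The precision rests on 1 array per strain and region, and levels under log2 5 have no firm order.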

Other observations

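Hsf2, the gene of a heat shock transcription factor, did not meet the brightness filter because it was dim in all other strains. Its probe set 1449306_at read 5.89 in WSB/EiJ cortex against 2.86 to 2.95 in the 26 others, and 6.02 in accumbens against 2.78 to 2.90. The other Hsf2 probe set, 1444436_at, read 2.41 and 2.50, inside the range of the others in both regions. These values were chosen after they were seen, and no test is given.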
